A study of Mus musculus with 6 samples.

Results

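The genes described here are receptors and ligands of the gp130 and leptin receptor family, whose signal SOCS-3 restrains. Their symbols were given as a list of 9 genes, namely Il6st, Il6ra, Lifr, Osmr, Il11ra1, Cntfr, Lepr, Il6 and Lif, and each was read from the probe set that the array's annotation gives that 1 symbol. Of the 9 genes, 8 had such a probe set, 1 each, among 19938 genes tested. Il11ra1, which encodes the interleukin-11 binding receptor, had no probe set with its symbol alone and was not analysed here. The arrays were Affymetrix MoGene arrays of mouse skeletal muscle, 3 of transgenic mice (TG) and 3 of wild-type mice (WT) by their labels. Each array came from a different mouse, and the series title names SOCS-3 and muscle. The labels state neither which gene the transgene carries and what drives it, nor the strain, sex or age of the mice, nor which muscle was taken.

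Skeletal muscle fibre genes, including the actin gene Acta1 and the creatine kinase gene Ckm, were all measured, and the mean of 10 such genes lay between 12.86 and 12.88 on TG arrays and between 12.87 and 12.92 on WT arrays on the log2 scale. Array medians differed by 0.0571 at most. Over all genes 1 passed an adjusted p of 0.05 (limma). The labels give the same date for all 6 arrays.

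Cytokines of the interleukin-6 family bind a receptor of their own and then recruit gp130, the shared signalling chain encoded by Il6st, alone or beside the leukaemia inhibitory factor receptor or the oncostatin M receptor. The chains carry JAK kinases, which phosphorylate the receptor tails and the transcription factor STAT3. The leptin receptor has the same build and also signals through STAT3. SOCS-3, itself induced by STAT3, binds phosphorylated tyrosines of gp130 and of the leptin receptor and damps the signal. In muscle, interleukin-6 is released during contraction, leukaemia inhibitory factor acts on muscle precursor cells, and the ciliary neurotrophic factor receptor is made by muscle fibres as well as by motor neurons.

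The promoters of 2 genes are shown, and no result on expression rests on them. Cntfr was the family member whose TG and WT values stood apart, and Socs3 encodes the inhibitor of the series title and is a STAT3 target. The sequences are RefSeq windows of build GRCm38.p6, running from 250 bases before an annotated transcription start to 50 bases after it. The window of Cntfr, chr4:41689131-41689430 on the minus strand, is 1 of 6 that the table holds for this gene, chosen for having the most E-boxes. An E-box, CANNTG, is the letter pattern read by the myogenic factors of the MyoD family, and its 4 matches are in capitals. In the window of Socs3, chr11:117969317-117969616 on the minus strand, the capitals mark the match to TTCNNNGAA, the pattern read by STAT factors.
Cntfr: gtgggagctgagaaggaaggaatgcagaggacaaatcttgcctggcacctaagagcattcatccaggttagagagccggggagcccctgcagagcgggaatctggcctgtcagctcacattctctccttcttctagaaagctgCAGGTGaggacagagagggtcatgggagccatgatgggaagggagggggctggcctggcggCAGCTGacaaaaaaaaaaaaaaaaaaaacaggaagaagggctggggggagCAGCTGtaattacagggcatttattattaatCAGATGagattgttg
Socs3: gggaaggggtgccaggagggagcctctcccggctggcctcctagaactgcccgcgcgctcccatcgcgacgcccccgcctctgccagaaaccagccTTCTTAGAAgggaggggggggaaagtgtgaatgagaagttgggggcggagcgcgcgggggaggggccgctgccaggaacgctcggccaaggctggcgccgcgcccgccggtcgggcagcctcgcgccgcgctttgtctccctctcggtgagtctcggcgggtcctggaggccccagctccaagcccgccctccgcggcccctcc
The E-boxes of the Cntfr window begin 107 and 46 bases before the start and 4 and 35 bases after it. In Cntfr as a whole, 3 of the 6 windows held an E-box, but windows of 1 gene can overlap. The same CACATG was counted in 2 of these 3. Over all 9 family members, 11 of 17 windows held one, and 72.3% of the 32851 windows of the table did. The Socs3 match to TTCNNNGAA begins 154 bases before the start. None of the 17 windows of the family members held TTCNNNGAA, against 8.3% of all windows. Both patterns read the same on either strand and were searched at every position. A match is a run of letters and says nothing of binding, and its absence says only that these letters are not in these windows.

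Of the 8 measured genes, Cntfr was the 1 whose TG and WT values did not overlap. Cntfr was 1.81-fold higher on the TG arrays, all 3 of which lay above all 3 WT arrays. The other genes, which include the shared chain Il6st and the leptin receptor gene Lepr, differed by -0.05 to 0.18 on the log2 scale. No member passed an adjusted p of 0.05 over all genes tested (limma), and 0.00502% of all genes did. The groups did not overlap for 1 of the 8 members, with higher values in TG. Of all genes, 4.52% had non-overlapping higher values and 7.76% had non-overlapping lower values in TG. With both directions counted, 1 of 8 was close to the share among all genes, so this count does not set the family apart. At an unadjusted p under 0.05, 1 of the 8 was higher, against 1.96% of all genes, and 0 were lower, against 4.79%. The median log2 difference, TG minus WT, was 0.024 over the 8 members and -0.016 over all genes.

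**Figure D1:**
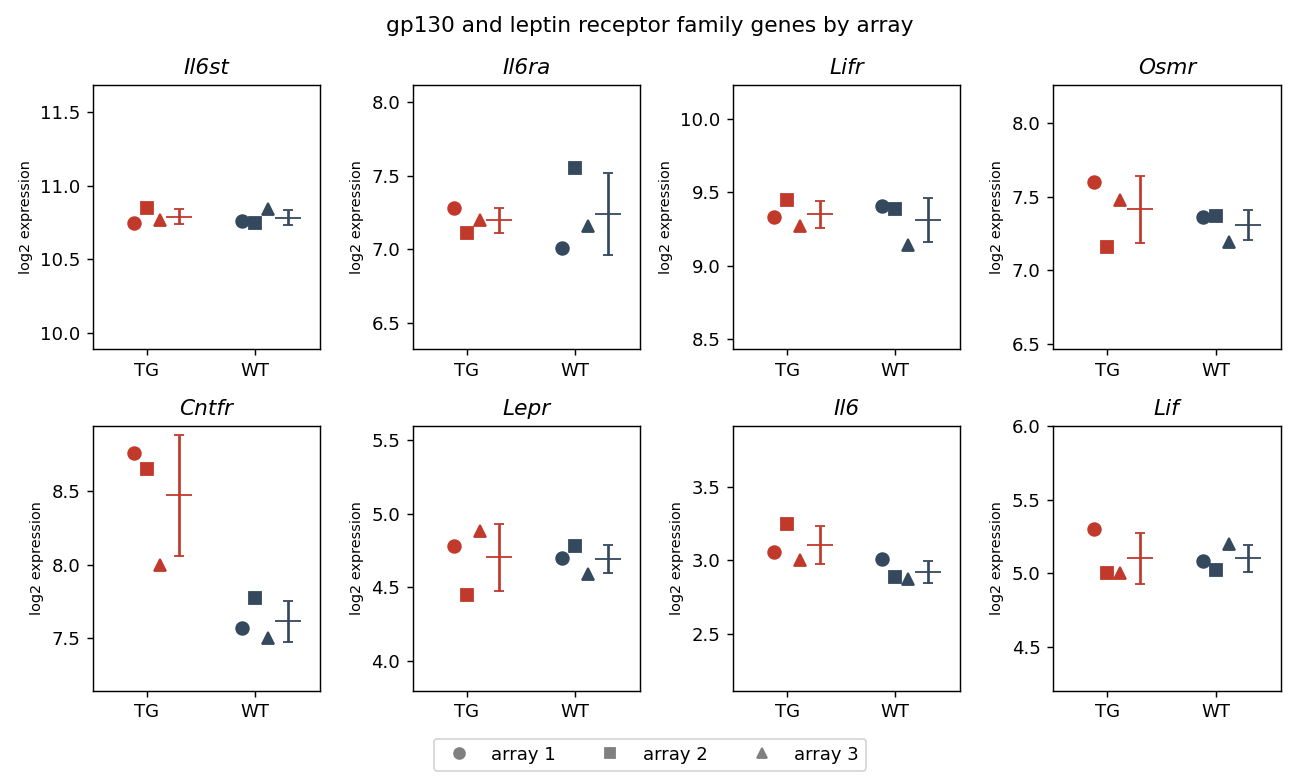
Log2 expression of the 8 measured genes on each array, with TG left of WT in each panel. Marker shapes number the arrays within a group, which pairs no animals, each bar is the mean with its SD (n = 3), and every panel spans the same log2 range. Cntfr is the panel in which no TG array reaches down to the WT arrays, and the Il6st points lie within 0.1 of each other.

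Il6st encodes gp130, the chain that every interleukin-6 family receptor here needs. It was measured at 10.75, 10.85 and 10.77 on TG arrays 1 to 3, against 10.76, 10.75 and 10.84 on WT arrays 1 to 3. The 2 groups overlapped fully, and the range over the 6 arrays was 0.1. TG mice averaged 10.79 ± 0.05 and WT mice 10.79 ± 0.05 (SD, n = 3 per group), so that TG minus WT came to 0.01 (SE 0.07) with an adjusted p of 0.992 in limma. The 95% interval of -0.15 to 0.16 places the TG level between 0.902 and 1.12 times the WT level. Il6st was the member that varied least between mice.

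Il6ra, the interleukin-6 binding receptor, was at 7.28, 7.11 and 7.20 on the TG arrays, against 7.01, 7.55 and 7.16 on the WT arrays. WT array 2 was the highest and WT array 1 the lowest of the 6, so the TG values lay inside the WT range. The log2 difference was -0.05 (SE 0.14, 95% interval -0.37 to 0.27; limma, adjusted p = 0.960). Its direction rested on WT array 2, without which the difference was 0.11.

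Lifr encodes the leukaemia inhibitory factor receptor, which pairs with gp130 for leukaemia inhibitory factor, cardiotrophin-1 and ciliary neurotrophic factor. Its values were 9.33, 9.45 and 9.27 on the TG arrays, against 9.41, 9.39 and 9.14 on the WT arrays. The groups overlapped, with the lowest value on WT array 3. The log2 difference was 0.03 (SE 0.09, 95% interval -0.19 to 0.25; limma, adjusted p = 0.959), and it turned to -0.05 without WT array 3 and to -0.02 without TG array 2.

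Osmr, the oncostatin M receptor chain, was at 7.60, 7.16 and 7.48 on the TG arrays, against 7.36, 7.37 and 7.19 on the WT arrays. TG arrays 1 and 3 were above every WT array and TG array 2 below every one of them. The difference of 0.11 (SE 0.12, 95% interval -0.17 to 0.39; limma, adjusted p = 0.875) was therefore smaller than the SD of 0.22 among TG mice. It was 0.02 without TG array 1, 0.05 without WT array 3 and 0.23 without TG array 2.

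Cntfr encodes the ciliary neurotrophic factor receptor, a chain anchored in the membrane by a lipid and without a signalling tail, which needs gp130 and the leukaemia inhibitory factor receptor to signal. It was measured at 8.76, 8.65 and 8.0 on the TG arrays, against 7.57, 7.77 and 7.50 on the WT arrays. The lowest TG value lay 0.23 above the highest WT value, and TG array 3 was the closest to the WT mice. TG mice averaged 8.47 ± 0.41 and WT mice 7.61 ± 0.14 (SD, n = 3 per group). The log2 difference was 0.86 (SE 0.19, 95% interval 0.41 to 1.30), which is 1.33 to 2.47 times the WT level, and it did not pass over all genes (limma, adjusted p = 0.558). Among the 19938 genes, 5 had a larger positive difference than Cntfr, which stood 6th, and by unadjusted p it stood 89th. In whole muscle, more cells that express a gene and more of its RNA per cell cannot be told apart.

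When each array was left out in turn, the difference of Cntfr ran from 0.71 without TG array 1 to 1.09 without TG array 3. Leaving out an array could not change its sign, since every TG value lay above every WT value. The adjusted p over these fits ran from 0.238 to 0.905 (limma). For some other cells, most markers also had a higher mean in TG, though not on every TG array. The fat cell list had 8 of 8 measured genes above 0, with Adipoq at 0.64 (SE 0.09) and Plin1 at 0.21 (SE 0.09) the genes of smallest p, and its mean level was 6.91 to 7.11 on TG arrays and 6.75 to 6.81 on WT arrays. The macrophage list had 9 of 9 above 0, with Itgam at 0.57 (SE 0.10) and Tyrobp at 0.26 (SE 0.09) the genes of smallest p and mean levels of 6.44 to 6.76 on TG arrays and 6.26 to 6.48 on WT arrays. The bone and osteoclast list had 7 of 8 above 0. Its genes of smallest p were Ctsk at 0.57 (SE 0.18) and Acp5 at 0.69 (SE 0.21). The list's mean levels were 5.97 to 6.83 on TG arrays and 5.82 to 6.10 on WT arrays. On TG array 3 the macrophage mean, 6.44, was under that of WT array 2, 6.48. The bone and osteoclast mean of TG array 3, 5.97, was under those of WT array 1, 6.02, and WT array 3, 6.10. No marker of these lists was at 0, none passed over all genes (limma), and their part in the Cntfr difference was not tested. The other marker lists were mixed or lower. Above 0 were 5 of 8 fibroblast genes (Pi16 at -0.28, Pdgfra at 0.16), 3 of 8 endothelial genes (Egfl7 at -0.25, Pecam1 at 0.14), 2 of 6 lymphocyte genes (Cd3g at -0.30, Cd8a at -0.24) and 1 of 5 nerve and Schwann cell genes (Ngfr at -0.17, Nefm at 0.18). Of the muscle fibre genes 3 of 10 were above 0 (Myh2 at -0.30, Myh1 at 0.06), and of the liver genes 0 of 8 (Apoa1 at -0.78, Tat at -0.47). Without TG array 3 these liver genes were at -0.33 and -0.11, and without TG array 2 at -1.33 and -0.82. Myh2 was at -0.12 without WT array 3. Cd3g and Nefm lay below the lower quartile of gene levels, 4.96, on every array.

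The genes next to Cntfr on chromosome 4 did not share its difference. Its nearest tested neighbours in gene order, Enho, which encodes the secreted peptide adropin, and Rpp25l, were at 0.08 (SE 0.06) and 0.06 (SE 0.08), and the 10 nearest, 5 on each side, ran from -0.29 to 0.22. These neighbours were looked at after the Cntfr values were seen.

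Lepr, the leptin receptor, was at 4.78, 4.45 and 4.88 on the TG arrays, against 4.70, 4.78 and 4.59 on the WT arrays. The highest and the lowest value were both on TG arrays, so the groups overlapped. The log2 difference was 0.01 (SE 0.12, 95% interval -0.27 to 0.29; limma, adjusted p = 0.990). Its sign turned without some arrays, to -0.07 at the furthest without TG array 3. The single Lepr probe set does not separate the long, signalling form of the receptor from the short forms. Leprot, whose product acts on leptin receptor traffic to the cell surface and which lies next to Lepr, averaged 7.10 ± 0.18 in TG mice and 7.0 ± 0.22 in WT mice (SD, n = 3 per group), with TG minus WT at 0.10 (SE 0.13).

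Il6, the interleukin-6 gene, was at 3.06, 3.25 and 3.0 on the TG arrays, against 3.01, 2.89 and 2.87 on the WT arrays. TG array 3 lay just under WT array 1, by 0.013 on the log2 scale, and the groups otherwise separated. The difference was 0.18 (SE 0.09, 95% interval -0.02 to 0.38; limma, adjusted p = 0.758). Lif, which encodes leukaemia inhibitory factor, was at 5.30, 5.0 and 5.0 on the TG arrays, against 5.08, 5.02 and 5.20 on the WT arrays. The TG arrays held both its highest and its lowest value, and TG mice averaged 5.10 ± 0.17 and WT mice 5.10 ± 0.09 (SD, n = 3 per group). The 95% interval of the difference was -0.24 to 0.24 (limma, adjusted p = 1). Il6, Lif and Lepr were the 3 members below the median level of all genes, and the other 5 were above it. Il6 and Lepr lay below the lower quartile of gene levels, 4.96, on every array, so their differences were read at low signal.

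**Figure D2:**
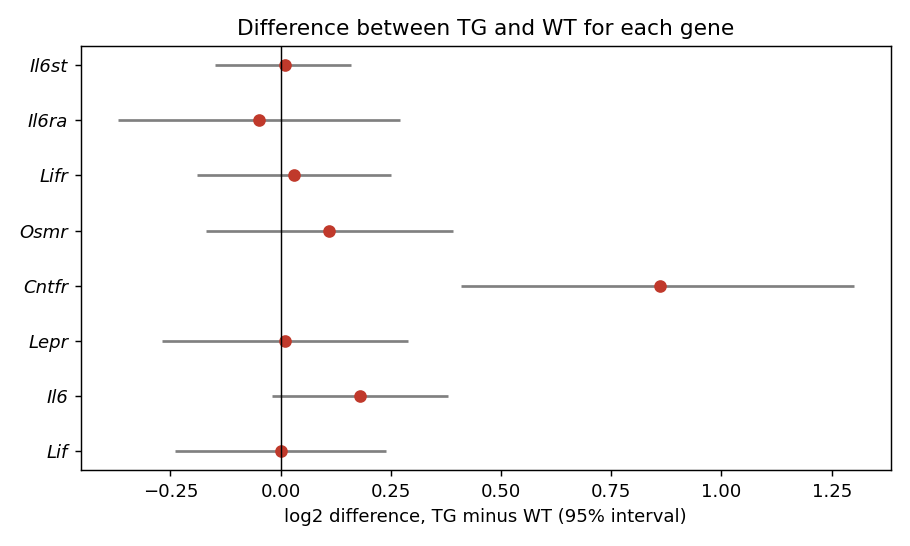
Log2 difference, TG minus WT, of each measured gene, with receptors above ligands. Points are the differences and lines their 95% intervals from limma (n = 3 each). The interval of Cntfr, 0.41 to 1.30, lies to the right of 0 and those of the other 7 genes cross 0, none of them reaching past 0.39 on either side.

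The members did not move together from mouse to mouse. TG array 1 had the highest value for 3 of the 8 (Osmr, Cntfr and Lif), TG array 2 for 3 (Il6st, Lifr and Il6), TG array 3 for Lepr and WT array 2 for Il6ra. TG array 2 also had the lowest value for 3 members, namely Osmr, Lepr and Lif. The genes whose values over the 6 arrays, each taken relative to its own mean, were most like those of Il6st were Alg8, a glycosylation enzyme gene, Atox1, a copper chaperone gene, and Arrdc5, with mean absolute differences of 0.0085, 0.011 and 0.012 on the log2 scale. For Lepr they were Nek10, Trp53rka and the cadherin gene Cdh3, at 0.024, 0.027 and 0.032. For Cntfr, added after its values were seen, they were the chemokine gene Ccl9, Apaf1, the scaffold of the apoptosome, and the haem oxygenase gene Hmox1, at 0.12, 0.13 and 0.16. Their own differences between TG and WT were 0.67, 1.01 and 0.59, and none passed over all genes (limma, adjusted p = 0.738, 0.221 and 0.738). Genes chosen for values like those of Cntfr differ in its direction by that choice, so these differences add nothing of their own. By the same measure, genes that vary little over the arrays, as Il6st did, are all close to each other.

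The rest of the pathway was read from 5 lists of 63 genes, of which 57 had a probe set of their own. None of the 57 passed over all genes (limma, smallest adjusted p = 0.660). At an unadjusted p under 0.05 there were 0 higher and 6 lower in TG, where 1.96% and 4.79% of all genes were, and the groups did not overlap for 0 higher and 4 lower, where 4.52% and 7.76% of all genes did not. The median log2 difference was -0.010 over the 57 genes.

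**Figure D3:**
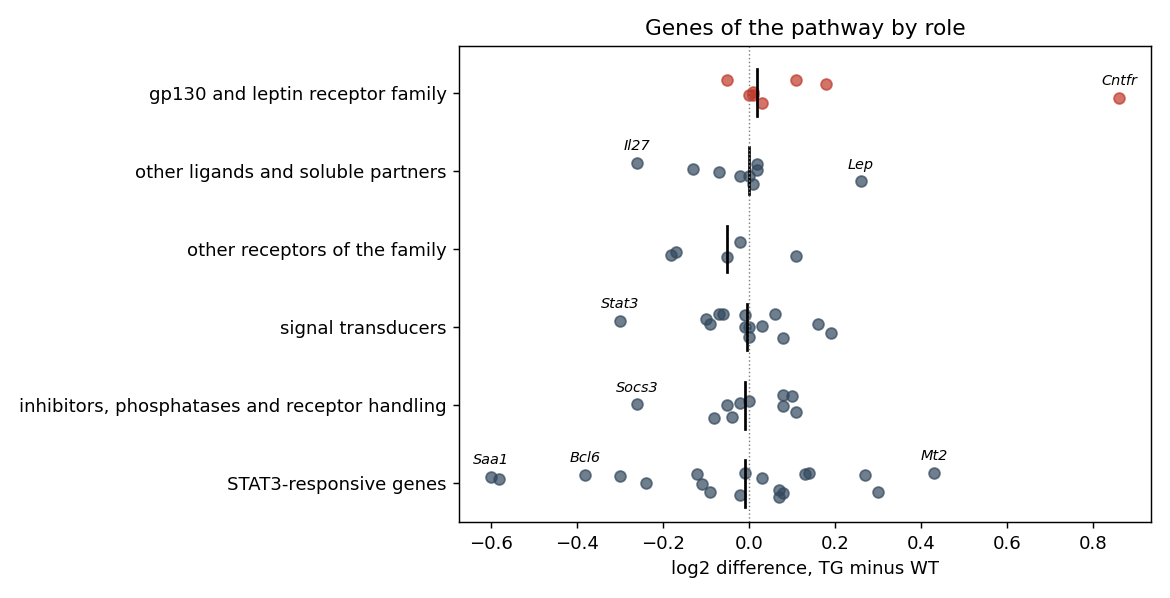
Log2 difference, TG minus WT, of the 8 family members (top row) and of 57 other pathway genes by role. Each point is 1 gene, spread vertically for legibility, and the black bars are list medians. Cntfr at 0.86 is the point furthest from 0 in the plot, and the list medians lie between -0.054 and 0.024.

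Among the other ligands and soluble partners, 4 of 9 measured genes were above 0, 5 below, and the median was -0.003. Il27, which encodes a chain of interleukin-27, a cytokine that also uses gp130, was at 6.36, 6.43 and 6.52 on the TG arrays, against 6.62, 6.68 and 6.78 on the WT arrays. Every TG value lay under every WT value, with a difference of -0.26 (SE 0.08; limma, adjusted p = 0.676). Lep, the leptin gene, whose product fat cells secrete, was at 4.42, 4.70 and 4.47 on the TG arrays, against 4.48, 4.10 and 4.22 on the WT arrays. The Lep groups overlapped through TG array 1 and TG array 3, both under WT array 1, and the difference was 0.26 (SE 0.12; limma, adjusted p = 0.740). Every Lep value lay below the lower quartile of gene levels, 4.96, and so was read at low signal. Il11, the ligand of the unmeasured Il11ra1, was at -0.13 (SE 0.14), or -0.03 without WT array 3 and -0.30 without WT array 2, and Il31, an itch cytokine gene, at -0.07 (SE 0.12). Cntf, the ligand of the Cntfr product, had no probe set with its symbol alone and was not analysed here.

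Of the other receptors related to gp130, 1 of 5 was above 0 and 4 were below, with a median of -0.054. Il12rb2 and Il27ra, receptor chains for interleukin-12 and interleukin-27, stood at -0.18 (SE 0.13) and -0.17 (SE 0.13), and at -0.04 without TG array 2 and -0.01 without WT array 3. Csf3r, the granulocyte colony-stimulating factor receptor, stood at 0.11 (SE 0.13) and Il31ra at -0.05 (SE 0.13). In none of these 5 did the groups separate. Il12rb2 and Il31ra lay below the lower quartile of gene levels, 4.96, on every array.

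Of 14 measured signal transducers, 7 were above 0, and the list median was -0.003. The groups of 1 of the 14 did not overlap, with lower values in TG, where 7.76% of all genes had such values. Stat3, the main transcription factor downstream of the family, was the 1 gene of the list whose groups did not overlap, at 8.95, 8.94 and 8.94 on the TG arrays, against 9.18, 9.35 and 9.19 on the WT arrays (difference -0.30, SE 0.07; limma, adjusted p = 0.660). The TG mice were almost equal to each other, and the WT spread came from WT array 2. Stat5b was at 0.19 (SE 0.10), the phosphoinositide kinase subunit gene Pik3r1 at 0.16 (SE 0.13) and the MAP kinase kinase gene Map2k1 at -0.10 (SE 0.07).

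In the list of inhibitors, phosphatases and receptor handling, 5 of 10 genes were above 0 and the median was -0.008. Socs3 was at 7.12, 7.25 and 7.07 on the TG arrays, against 7.43, 7.41 and 7.37 on the WT arrays, a difference of -0.26 (SE 0.07; limma, adjusted p = 0.660). All TG values lay below all WT values. Socs3 had 2 probe sets, and these values are those of the probe set with the higher mean. With the mean of its probe sets the difference was -0.24. The values do not check the labels, since the sources used here do not say whether the transgene holds the sequence of the probe set. Adam17, the protease that sheds the interleukin-6 receptor, was at 0.11 (SE 0.08) and Pias3, a STAT3 inhibitor gene, at 0.08 (SE 0.09).

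Of 19 genes known to respond to STAT3, 9 were above 0, and their median was -0.010. Values in TG were lower without overlap for 1 of the 19, against 7.76% of all genes. Bcl3, a nuclear regulator of NF-kappaB, was at 6.39, 6.29 and 6.26 on the TG arrays, against 6.49, 6.56 and 6.62 on the WT arrays, and was the 1 gene of this list whose groups separated (difference -0.24, SE 0.07; limma, adjusted p = 0.676). The early response gene Junb was at -0.30 (SE 0.12) and the transcriptional repressor gene Bcl6 at -0.38 (SE 0.16), both lower at an unadjusted p under 0.05. Junb was at -0.19 without WT array 2 and Bcl6 at -0.21 without WT array 3. Timp1, the metalloproteinase inhibitor gene, was at 0.30 (SE 0.16), with 6.02, 6.01 and 5.39 on the TG arrays and 5.49, 5.46 and 5.56 on the WT arrays. TG arrays 1 and 2 carried the Timp1 difference, and TG array 3 lay below every WT array.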

How the data were processed

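Total RNA of frozen muscle was extracted with Trizol and column-purified, then labelled with biotin, per the labels' protocols. The authors' deposited table holds log2 values for 35557 probe sets on 6 arrays. That the scale is log2 was taken from their range, 1.41 to 15.1, and no source used here states how they were summarized or normalized. Columns of the table that were not used number 0. Probe sets with 1 gene symbol in the platform annotation numbered 21789, while 1621 had several and 12147 had none, and these stayed unnamed. Each gene took its probe set of highest mean.

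TG and WT were compared with limma 3.58.1 in R 4.3.3 (lmFit, eBayes, two-sided) over 19938 genes, with Benjamini-Hochberg adjustment and a threshold of 0.05. The steps were tested on simulated data. With 3 arrays per group, their number limits the precision. The family members and lists were chosen with earlier results of these data known. Of each pathway list the 4 genes of smallest p were named, plus Socs3, Lep, Leprot and Stat3, and of each marker list at most 2. Figures were drawn with matplotlib 3.10.9. The alternatives were the variance prior, array weights, a level filter, probe set handling, normalization and leaving out each array.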

Additional observations from a re-analysis of the deposited data

How the results depend on the processing

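No member passed the adjusted threshold under any of the 14 alternatives (limma), and 1 of the 8, Cntfr, had an unadjusted p under 0.05 with all arrays. The count of genes past the threshold over all genes, 1 with all arrays, was 7 with an intensity trend, 2 among genes above the median level, and 0 with robust moderation, with a common array median, with every probe set tested and without each array in turn (0 to 0). The last of these fits had fewer arrays, and the fit with every probe set held more tests. The cause of the changed counts was not tested.

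Cntfr, Il6 and Osmr kept their direction under every alternative that could be run for them. For Cntfr, leaving out an array could not change it, since its groups did not overlap. Il6st turned to -0.01 with quantile normalization and ran from -0.02 to 0.03 without each array. Lepr turned to -0.004 with array weights and ran from -0.07 to 0.14 without each array. In the same fits Il6ra ran from -0.16 to 0.11, Lifr from -0.05 to 0.08 and Lif from -0.10 to 0.05. Of the other pathway genes named, Il31 ran from -0.16 to 0.07, Csf3r from -0.01 to 0.21 and Il31ra from -0.17 to 0.05. Il6, Lif and Lepr have no value under the filter on level, which left 5 of the 8 members. No paired analysis was possible because the labels give no replicate numbers shared between TG and WT mice.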

Other observations

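WT array 2, which had the highest Il6ra value, also had the highest value for 10 of the 19 STAT3-responsive genes, where 15.5% of all genes had theirs on that array. These 10 were Junb, Mcl1, Cebpd, Cebpb, Mt1, Lbp, Icam1, Lrg1, Saa1 and Hp, several of which encode proteins of the acute phase response. Cebpd, a transcription factor gene of that response, was at 7.76, 7.48 and 8.02 on the TG arrays, against 7.28, 8.38 and 6.79 on the WT arrays. Saa1, which encodes serum amyloid A, was at 3.27, 3.23 and 2.65 on the TG arrays, against 3.04, 5.01 and 2.90 on the WT arrays. For both genes the range among WT mice was larger than the difference between the TG and WT means. Saa1 lay below the lower quartile of gene levels, 4.96, on every array but WT array 2. TG array 3 and WT array 1 each had the highest value for 0 of the 19. These genes were singled out after their values were seen.

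The liver list had its highest mean level on TG array 2, at 8.30, and its lowest on TG array 3, at 6.10. On WT arrays 1 to 3 its mean was 7.31, 7.88 and 8.02. Lbp, Fgg, Saa1 and Hp of the STAT3-responsive list are also made by liver, and any part of liver RNA in their values was not tested.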
